A study of Homo sapiens with 8 samples.

Results

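T cell receptor gene segments are the V, D, J and C pieces of the 4 receptor loci, and 226 of the 57189 genes counted in these libraries carry the name of one: 115 in TRA, 84 in TRB, 11 in TRD and 16 in TRG. They were picked by symbol (TRA, TRB, TRD or TRG followed by V, D, J or C), not by any measured value. The choice of this gene family was nonetheless made with earlier results of these data known. The cells were TIB153 and CUTLL1, which the labels spell CUTTL1, both human T-ALL lines by their labels, grown in RPMI with serum and not transfected. In each line, cells exposed to PKF118-310, a compound described as a β-catenin/Tcf inhibitor and given for about a day at a micromolar concentration by the study's methods, were set against control cells, and poly(A) RNA was sequenced with a stranded kit. Each of the 4 groups was 1 library read on 2 lanes; the lanes were summed, so a ratio within a line has a counting error and no replicate error. A human T-ALL line is 1 clonal tumour population, and CUTLL1 is known for a translocation that joins the TRB locus to NOTCH1. The identity of the lines was taken from the labels and could not be checked here.

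A T cell makes its receptor by cutting and joining DNA. RAG1 and RAG2 cut beside V, D and J segments, DNTT adds bases at the joints, and the joined V(D)J exon is spliced to a C segment, so that a clonal line usually holds few joined V segments per locus. TRA and TRB encode the α and β chains of the common receptor, TRD and TRG the δ and γ chains of the other. Transcription from unjoined segments also occurs in immature T cells, and it is driven by enhancers and promoters bound by TCF7, LEF1, RUNX1, GATA3, MYB and ETS1 among others.

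The libraries held 7609427 to 8140391 counts. Segments took 0.1206% of them in CUTLL1 cells given PKF118-310 and 0.2002% in control CUTLL1 cells, against 0.0230% and 0.0228% in treated and control TIB153 cells. All 8 T cell markers (CD3D, CD3E, CD3G, CD247, CD2, CD5, CD7 and LCK) were above 3 counts in every library. Their summed level was 1682.0 CPM in treated and 2011.2 CPM in control CUTLL1 cells, and 2328.0 and 2398.0 CPM in treated and control TIB153 cells. At most 1 of 6 B cell, 1 of 5 NK cell, 1 of 5 myeloid and 0 of 4 erythroid markers exceeded 3 counts in a library. The B cell markers, of which CD79A held nearly all counts, summed to 14.2 CPM in treated and 10.9 CPM in control CUTLL1 cells and to 104.7 and 79.1 CPM in treated and control TIB153 cells, and their part in the segment values was not tested. In these bulk libraries, fewer cells with a transcript cannot be told apart from less of it per cell. CPM here is the count scaled to library size after TMM normalization.

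The 2 lines differed in which segments had reads. In CUTLL1, 30 segments reached 10 counts in at least 1 library, and in TIB153 16 did, 14 of them shared. The same overlap over all genes is not given here, so these counts describe the segments and were not set against other genes. Of the 226 segments, 127 had no read in any library: 37 of 54 TRA V, 34 of 60 TRA J, 40 of 67 TRB V, 1 of 14 TRB J, 3 of 12 TRG V, 1 of 2 TRG J and all 11 TRD segments. The TRD locus lies inside TRA on chromosome 14, and its C segment TRDC (22462932 to 22465787, GRCh38, plus strand) had 0 counts in all 4 libraries. For counted reads, a count of 0 allows up to 0.374 and 0.405 CPM in treated and control CUTLL1 cells (3 counts). In treated and control TIB153 cells it allows up to 0.357 and 0.390 CPM. For the short D and J segments it does not limit their use in joined transcripts, since the counting of reads across a joint was not tested. The 8 TRB V copies on chromosome 9 together had 1 count. No TRA J segment exceeded 5 counts in a library, although the 60 of them together had 22 and 34 counts in treated and control CUTLL1 cells and 4 and 3 in treated and control TIB153 cells.

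Per kilobase of exon, the β constant segment TRBC1 was the most abundant of the segments in every library, at 794.5 CPM per kb in treated and 1433.8 CPM per kb in control CUTLL1 cells and at 107.3 and 141.7 CPM per kb in treated and control TIB153 cells. TRBC1 (chromosome 7, 142791694 to 142793368, plus strand) stood at 603.9 CPM (95% Poisson interval 587.0 to 621.1) in treated and 1089.7 CPM (1066.1 to 1113.7) in control CUTLL1 cells. In TIB153 it stood at 81.6 CPM (75.6 to 87.9) in treated and 107.7 CPM (100.5 to 115.3) in control cells. Neither pair of intervals overlapped, and the treated library was the lower in both lines. TRBC2 (142801041 to 142802748), the second β constant segment on the same strand, stood at 157.7 CPM (149.2 to 166.7) in treated and 175.5 CPM (166.1 to 185.3) in control CUTLL1 cells. In TIB153 TRBC2 stood at 77.0 CPM (71.2 to 83.2) in treated and 66.9 CPM (61.2 to 72.9) in control cells, the opposite order. Both pairs of TRBC2 intervals overlapped. The 2 segments are near copies: their first exons, 387 bases each, differ at 7 bases (98.2% identity), and 23.5% of the 50-base windows in TRBC1 also occur in another gene. Their first 60 bases are shown because reads can be assigned to one of them only across such differences. Capitals mark bases that differ (GENCODE release 29 transcripts, GRCh38, 5′ to 3′ of the plus strand).
TRBC1: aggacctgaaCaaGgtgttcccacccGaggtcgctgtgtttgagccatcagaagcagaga
TRBC2: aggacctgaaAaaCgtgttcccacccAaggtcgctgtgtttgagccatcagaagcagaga

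**Figure D1:**
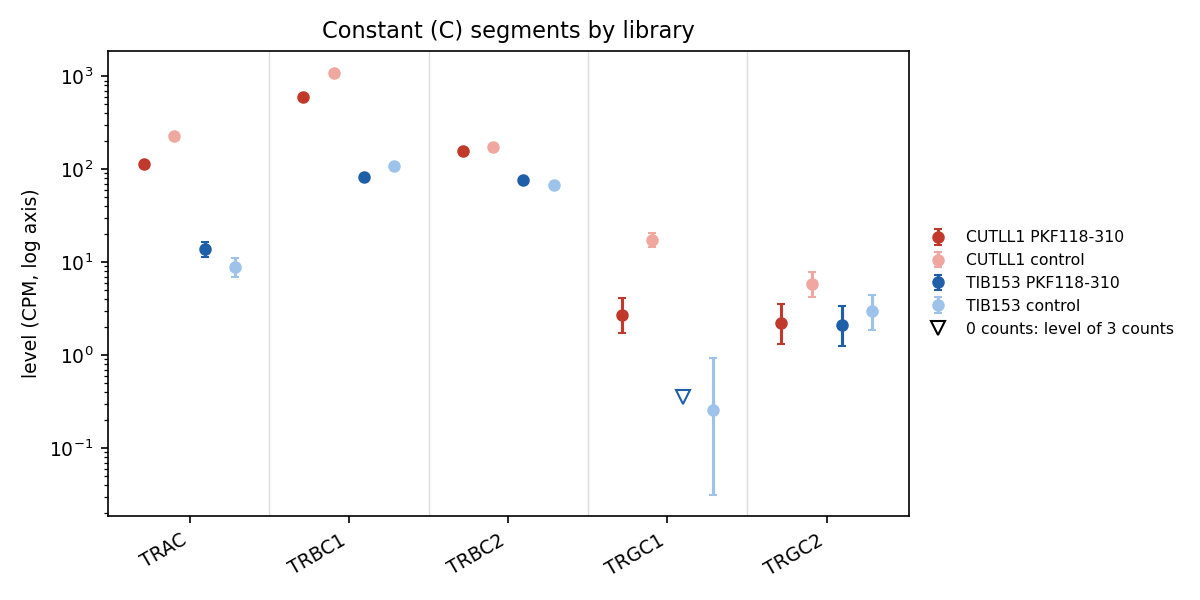
Levels of the 5 C segments with reads, in CPM on a log axis, for the 4 libraries; bars are 95% Poisson intervals, hidden by the point where they are narrow, and an open triangle stands at the level of 3 counts for a library with 0. TRBC1 is lower in treated than in control cells in both lines, TRAC is lower in treated CUTLL1 and higher in treated TIB153 cells, and TRGC1 is near 0 in TIB153.

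Summed over TRBC1 and TRBC2, which does not depend on how reads were split between them, the log2 ratio of treated to control cells was −0.73 in CUTLL1 (95% counting interval −0.78 to −0.69) and −0.14 in TIB153 (−0.25 to −0.03). The share of β constant counts held by TRBC1 was 79.3% in treated and 86.1% in control CUTLL1 cells (95% Clopper-Pearson intervals 78.3 to 80.3% and 85.4 to 86.8%). In TIB153 it was 51.4% in treated and 61.7% in control cells (48.7 to 54.1% and 59.0 to 64.3%). The share was thus lower in treated cells of both lines by more than counting error, and in CUTLL1 it was the higher of the lines under either condition.

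TRAC, the only α constant segment (chromosome 14, 22547506 to 22552154, plus strand), stood at 115.0 CPM (107.7 to 122.7) in treated and 227.0 CPM (216.3 to 238.1) in control CUTLL1 cells, a log2 ratio of −0.98 (−1.10 to −0.86). In TIB153 it stood at 13.9 CPM (11.5 to 16.7) in treated and 8.83 CPM (6.86 to 11.2) in control cells, a log2 ratio of 0.65 (0.21 to 1.11). It was therefore 1.97-fold lower in treated CUTLL1 cells, just short of the 2-fold limit used for calls within a line, and 1.57-fold higher in treated TIB153 cells. Of the γ constant segments on the minus strand of chromosome 7, TRGC1 (38257879 to 38265678) had 22 counts in treated and 129 counts in control CUTLL1 cells, or 2.74 CPM (1.72 to 4.15) and 17.4 CPM (14.5 to 20.7). In TIB153 it had 0 counts in treated and 2 in control cells, too few for a ratio. TRGC2 (38239580 to 38249572) stood at 2.24 CPM (1.33 to 3.54) in treated and 5.80 CPM (4.20 to 7.81) in control CUTLL1 cells, and at 2.14 CPM (1.27 to 3.39) and 2.99 CPM (1.89 to 4.48) in treated and control TIB153 cells. The first exons of TRGC1 and TRGC2 are 98.2% identical, and 44.7% of the 50-base windows of TRGC2 occur in another gene. Summed over both, the log2 ratio was −2.21 in CUTLL1 (−2.75 to −1.72) and −0.59 in TIB153 (−1.56 to 0.33), so the γ constant level was lower in treated CUTLL1 cells and not distinguishable at this depth in TIB153.

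In CUTLL1, 2 V segments held nearly all β variable counts. TRBV6-6 (chromosome 7, 142469537 to 142470013, plus strand) and TRBV12-3 (142560423 to 142560931) together took 96.9% of TRB V counts in treated and 93.8% in control cells (95.9 to 97.6% and 92.9 to 94.6%). The same pair took 3 of 99 TRB V counts in treated and 5 of 107 in control TIB153 cells. There TRBV7-2 (142352819 to 142353358) led, with 60.6% of TRB V counts in treated and 63.6% in control cells (50.3 to 70.3% and 53.7 to 72.6%). The last 60 bases of these V segments are shown because they end where a D or J segment is joined. Capitals mark the codon of the conserved cysteine that opens the antigen-binding CDR3 loop (GENCODE release 29, GRCh38, plus strand).
TRBV6-6: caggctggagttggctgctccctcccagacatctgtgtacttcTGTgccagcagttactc
TRBV12-3: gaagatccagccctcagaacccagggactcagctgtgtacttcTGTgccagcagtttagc
TRBV7-2: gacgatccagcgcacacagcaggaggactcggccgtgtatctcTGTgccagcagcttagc

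The leading β segments in the CUTLL1 libraries did not move together, and whether all reads came from 1 line was not tested. TRBV6-6 had 943 counts in treated and 1987 in control CUTLL1 cells, or 117.5 CPM (110.1 to 125.2) and 268.0 CPM (256.4 to 280.1), a 2.28-fold lower level in treated cells. TRBV12-3 had 750 counts in treated and 802 in control CUTLL1 cells, or 93.4 CPM (86.9 to 100.4) and 108.2 CPM (100.8 to 115.9), a 1.16-fold lower level. Accordingly, TRBV6-6 took 53.9% of TRB V counts in treated and 66.8% in control CUTLL1 cells (51.6 to 56.3% and 65.1 to 68.5%). TRBV12-3 took 42.9% in treated and 27.0% in control CUTLL1 cells (40.6 to 45.3% and 25.4 to 28.6%). For TRBV12-3, 42.5% of the 50-base windows occur in another gene, the neighbouring TRBV12-4 among them, against 1.8% for TRBV6-6. TRBV7-2 stood at 1.87 CPM (1.05 to 3.08) in treated and 11.5 CPM (9.16 to 14.2) in control CUTLL1 cells, 5.97-fold lower in treated cells, and at 7.14 CPM (5.45 to 9.20) in treated and 8.83 CPM (6.86 to 11.2) in control TIB153 cells, where the intervals overlapped.

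Between the control libraries of the lines, TRBV6-6 had 1987 counts in CUTLL1 and 1 count in TIB153, a ratio of 1376.3 with a counting interval of 370.0 to 81559.0. TRBV12-3 had 802 counts in CUTLL1 and 4 counts in TIB153, and was 185.2-fold higher in CUTLL1 (81.0 to 766.2). The constant segments differed less: TRBC1 was 10.1-fold higher in CUTLL1 (9.42 to 10.9) and TRBC2 2.62-fold (2.37 to 2.91). Per kilobase of exon, TRBV6-6 and TRBV12-3 together reached 531.2 CPM per kb in treated and 955.4 CPM per kb in control CUTLL1 cells, against 1002.6 and 1665.4 CPM per kb for TRBC1 and TRBC2 together. In TIB153 the pair reached 0.873 CPM per kb in treated and 1.60 CPM per kb in control cells, while TRBC1 and TRBC2 together stood at 208.9 and 229.9 CPM per kb. TIB153 thus had β constant reads with few β variable reads: TRBV7-2, its leading β V segment, stood at 18.1 CPM per kb in treated and 22.4 CPM per kb in control cells.

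**Figure D2:**
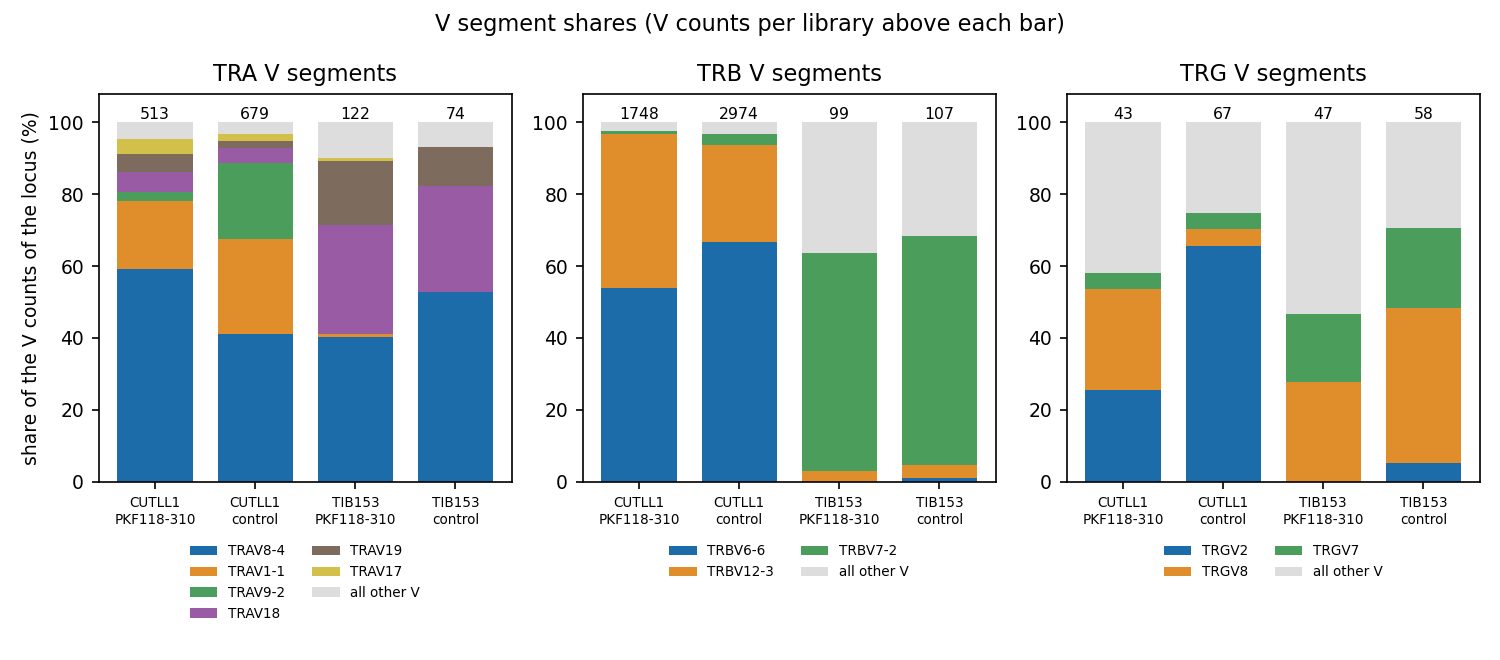
Share of the V counts of TRA, TRB and TRG held by each V segment, in percent, for the 4 libraries; the number above a bar is the V counts it divides. TRBV6-6 and TRBV12-3 fill the TRB bars of CUTLL1 and TRBV7-2 leads those of TIB153, while TRAV8-4 is present in both lines.

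TRA variable reads in CUTLL1 came mostly from TRAV8-4, TRAV1-1 and TRAV9-2, which together took 80.5% of TRA V counts in treated and 88.7% in control cells (76.8 to 83.8% and 86.0 to 90.9%). TRAV8-4 was also the leading TRA V segment of TIB153, and TRAV1-1 and TRAV9-2 had 0 counts in its control library. With 3 counts as the limit of a count of 0, TRAV1-1 was at least 62.0-fold higher and TRAV9-2 at least 49.5-fold higher in control CUTLL1 than in control TIB153 cells. Their last 60 bases are shown for the same reason as above, with the cysteine codon in capitals (GENCODE release 29, GRCh38, plus strand of chromosome 14).
TRAV8-4: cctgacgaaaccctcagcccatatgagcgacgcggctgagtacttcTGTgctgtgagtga
TRAV1-1: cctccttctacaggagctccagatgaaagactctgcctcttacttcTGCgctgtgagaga
TRAV9-2: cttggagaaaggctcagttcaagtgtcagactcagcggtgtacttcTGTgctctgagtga

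These 3 segments also parted between the treated and control CUTLL1 libraries, and here too the origin of the reads was not tested. TRAV9-2 (21941128 to 21941657) had 13 counts in treated and 143 in control CUTLL1 cells, or 1.62 CPM (0.862 to 2.77) and 19.3 CPM (16.3 to 22.7), an 11.5-fold lower level in treated cells. TRAV1-1 (21621838 to 21622567) had 96 counts in treated and 179 in control CUTLL1 cells, or 12.0 CPM (9.69 to 14.6) and 24.1 CPM (20.7 to 28.0), a 2.01-fold lower level. TRAV8-4 (21894433 to 21895030) had 304 counts in treated and 280 in control CUTLL1 cells, or 37.9 CPM (33.7 to 42.4) and 37.8 CPM (33.5 to 42.5), with a log2 ratio of 0.00 (−0.24 to 0.24). Its share of TRA V counts was 59.3% in treated and 41.2% in control CUTLL1 cells (54.9 to 63.5% and 37.5 to 45.0%). In TIB153, TRAV8-4 stood at 5.83 CPM (4.32 to 7.71) in treated and 5.07 CPM (3.60 to 6.92) in control cells, with overlapping intervals. Of the windows of TRAV8-4, 35.2% occur in another gene, TRAV8-2 and TRAV8-6 among them, and none do for TRAV1-1 and TRAV9-2. Per kilobase, the 3 segments together stood at 115.4 CPM per kb in treated and 191.1 CPM per kb in control CUTLL1 cells, against 117.8 and 232.6 CPM per kb for TRAC.

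TRG variable counts were few in both lines, 43 in treated and 67 in control CUTLL1 cells and 47 and 58 in treated and control TIB153 cells. TRGV2 (chromosome 7, 38362864 to 38363518, minus strand) was the only TRG V segment to reach 5 CPM. It had 11 counts in treated and 44 in control CUTLL1 cells, or 1.37 CPM (0.684 to 2.45) and 5.94 CPM (4.31 to 7.97), and 0 and 3 counts in treated and control TIB153 cells, too few for a ratio. It took 25.6% of TRG V counts in treated and 65.7% in control CUTLL1 cells (13.5 to 41.2% and 53.1 to 76.8%). The end of the segment, read 5′ to 3′ on the minus strand with the cysteine codon in capitals (GENCODE release 29, GRCh38), is shown as the γ counterpart of those above.
TRGV2: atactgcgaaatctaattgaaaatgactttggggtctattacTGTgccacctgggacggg

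The TRB J segments lie in a cluster of 6 before TRBC1 and a cluster of 8 before TRBC2. TRBJ1-4, 3419 bases before TRBC1, had 43 counts in treated and 41 in control CUTLL1 cells, and 21 and 24 in treated and control TIB153 cells. TRBJ1-6, 2654 bases before TRBC1, had 34 counts in treated and 50 in control CUTLL1 cells, and 20 and 21 in treated and control TIB153 cells. These were the only J segments to reach 5 CPM, and for neither did a change reach the 2-fold limit in either line. TRBJ1-2, named after its values were seen, had 10 counts in treated and 15 in control CUTLL1 cells and 0 in both TIB153 libraries, and its neighbour TRBJ1-1 had 0 in all 4 libraries. Summed over the 6 segments, the TRBJ1 cluster stood at 19.1 CPM in treated and 23.2 CPM in control CUTLL1 cells (log2 ratio −0.28, −0.61 to 0.04) and at 8.93 and 7.92 CPM in treated and control TIB153 cells (0.17, −0.33 to 0.68). TRBC1, which follows the cluster, had a log2 ratio of −0.85 in CUTLL1 (−0.90 to −0.80), below the interval of its J segments. The TRBJ2 cluster held fewer counts: 57 in treated and 73 in control CUTLL1 cells, and 57 and 36 in treated and control TIB153 cells. The TRB J segments are 46 to 53 bases long, and whether reads that cross a joint were counted on segments this short was not tested. TRBJ1-1 and TRBJ1-2, where reads were absent from 4 and 2 libraries, are shown beside TRBJ1-4, with the codons of the Phe-Gly-X-Gly motif, which closes the CDR3 loop, in capitals (GENCODE release 29, GRCh38, plus strand).
TRBJ1-1: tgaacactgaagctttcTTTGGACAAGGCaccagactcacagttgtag
TRBJ1-2: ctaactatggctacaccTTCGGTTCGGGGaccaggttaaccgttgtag
TRBJ1-4: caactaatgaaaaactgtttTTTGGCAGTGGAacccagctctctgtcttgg

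**Figure D3:**
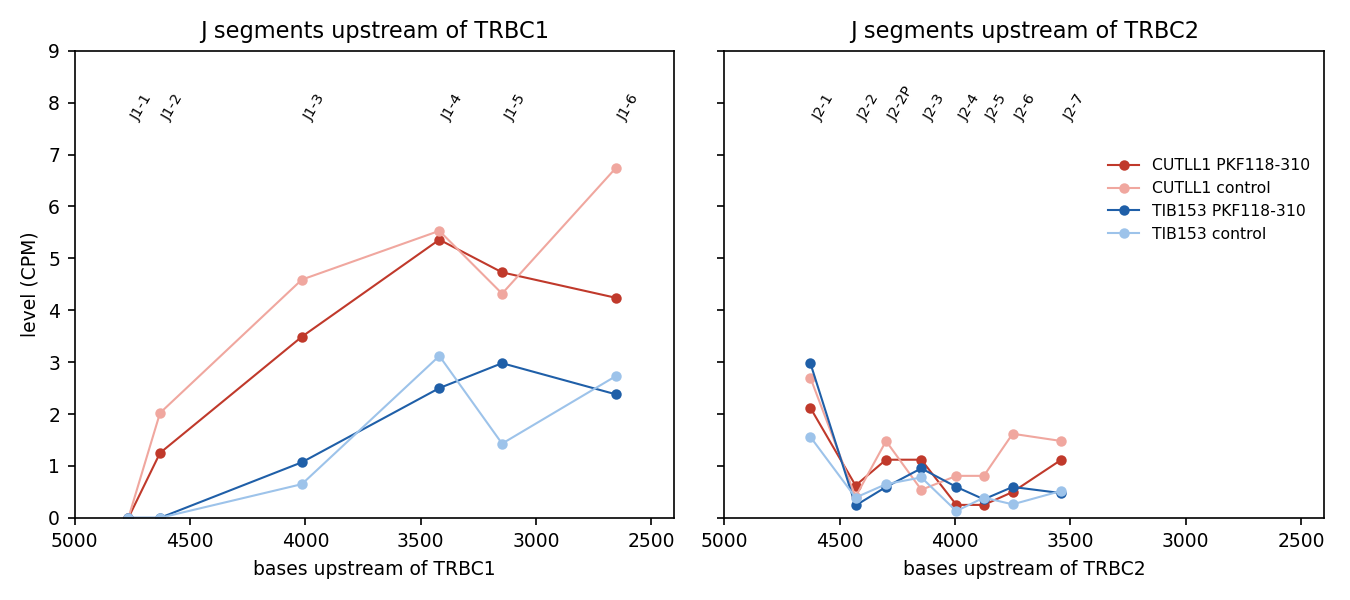
Level of each TRB J segment in CPM against its distance in bases from the start of the C segment that follows it, TRBC1 on the left and TRBC2 on the right, for the 4 libraries. TRBJ1-2 has reads in both CUTLL1 libraries and none in TIB153, and both lines have reads on TRBJ1-3 to TRBJ1-6.

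Within a line, a gene was called where treated and control cells differed at least 2-fold and the counting interval left out no change. Of the 226 segments, 21 passed the filter on low counts that was applied to all genes. In CUTLL1, 7 of the 21 were lower in treated cells, where 2.21% of all 13280 genes that passed were lower. They were TRAV1-1, TRAV9-2, TRBV6-6, TRBV7-2, TRGC1, TRGC2 and TRGV2. TRAV1-1, at the limit, lost its call with total counts, with a pseudocount of 2 counts and on lane 2 alone, and TRGC2 on lane 1 alone. None of the 21 was higher, where 4.80% of all genes were. Without the filter, 11 of the 226 were lower and 0 higher, where 0.671% and 1.46% of all 57189 genes were. The 4 added, named after their values were seen, were TRBV7-3, TRBV7-4, TRBV8-2 and TRBV9, each with 29 counts or fewer in a library. In TIB153, 1 of the 21 was lower in treated cells (TRGV8) and 1 higher (TRAV19), where 2.12% and 5.47% of all genes were. TRGV8 lost its call on lane 1 alone and TRAV19 on either lane alone. The median log2 ratio over the 21 segments was −0.39 in CUTLL1, against 0.00 over all genes. No median is given for TIB153, where 6 of the 21 had at most 3 counts in both libraries.

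**Figure D4:**
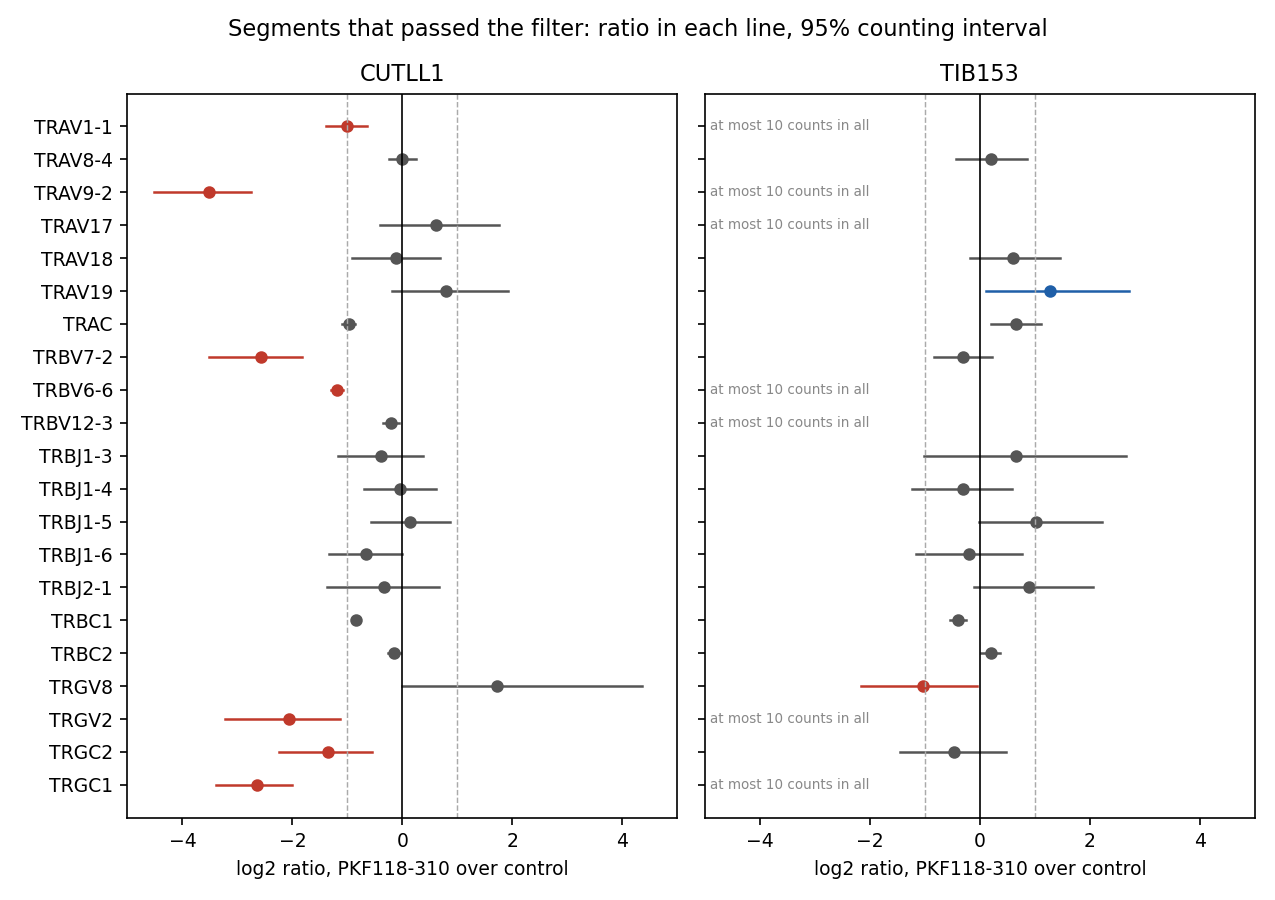
Log2 ratio of cells given PKF118-310 to control cells for the 21 segments that passed the filter, CUTLL1 on the left and TIB153 on the right; lines are 95% counting intervals, dashed lines mark a 2-fold change, red marks a segment called lower and blue one called higher, and segments with at most 10 counts in a line are left blank there. In CUTLL1, 7 segments are called lower while TRAV8-4, TRBV12-3 and TRBC2 lie near 0.

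Across the lines, edgeR's quasi-likelihood test set treated against control cells, with the line as a block and Benjamini-Hochberg adjustment over 13280 genes, so that the 2 lines are the only replicates (1 residual degree of freedom, with the spread shared over genes). Nothing in the labels says that separate cultures were grown within a line. Of the 21 segments tested, 5 were lower in treated cells and 0 higher, where 6.78% of all genes were lower and 6.11% higher. At an unadjusted edgeR p under 0.05, 8 were lower and 1 higher, where 14.8% and 13.9% of all genes were. DESeq2 called 1 lower and 0 higher, where it called 1.88% and 1.46% of all genes. TRBC1 had a log2 change of −0.64 (SE 0.14, adjusted p = 0.0127), with a log2 ratio of −0.85 in CUTLL1 and −0.40 in TIB153 (−0.55 to −0.25), and DESeq2's Wald test called it too (adjusted p = 0.0124). Summed with its near copy TRBC2, the log2 ratio was −0.73 in CUTLL1 and −0.14 in TIB153 (−0.25 to −0.03). That sum was not tested across lines. Of the 21 tested, 6 had at most 3 counts in both TIB153 libraries, among them the other 4 called. The calls of these 4 thus rest on 1 treated and 1 control CUTLL1 library, without a replicate, and on the spread shared over genes. The 4 were TRAV9-2 (log2 change −3.53, SE 0.54, adjusted p = 0.00232), TRBV6-6 (−1.20, SE 0.19, adjusted p = 0.00212), TRGC1 (−2.70, SE 0.49, adjusted p = 0.00471) and TRGV2 (−2.24, SE 0.63, adjusted p = 0.0318). DESeq2 did not call TRBV6-6 (adjusted p = 0.501) and gave no adjusted p for the other 3. TRAC did not pass the test (log2 change −0.41, SE 0.48, adjusted p = 0.651), nor did TRBC2 (0.02, SE 0.13, adjusted p = 0.948), TRGC2 (−0.95, SE 0.42, adjusted p = 0.156), TRBV12-3 (−0.23, SE 0.20, adjusted p = 0.50), TRAV8-4 (0.07, SE 0.22, adjusted p = 0.857) or TRBV7-2 (−1.29, SE 0.50, adjusted p = 0.136).

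The partners of the receptor chains were measured in the same libraries. Of CD3D, CD3E, CD3G, CD247 and PTCRA, which encode the CD3 and ζ chains and the pre-receptor α chain, 2 fell across the lines and 0 rose by the edgeR test, where 6.78% and 6.11% of all genes did. DESeq2 called only CD3G, where it called 1.88% of all genes lower. The median log2 ratio of the 5 was −0.41 in CUTLL1 and −0.03 in TIB153. CD3D was lower in treated CUTLL1 cells (log2 ratio −0.28, −0.37 to −0.20) and higher in treated TIB153 cells (0.26, 0.19 to 0.34). CD3G stood at 149.4 CPM in treated and 218.3 CPM in control CUTLL1 cells and at 88.8 and 158.1 CPM in treated and control TIB153 cells (log2 change −0.69, edgeR adjusted p = 0.00503, DESeq2 adjusted p = 0.0133). CD247, the ζ chain, stood at 83.8 CPM in treated and 111.7 CPM in control CUTLL1 cells and at 129.3 and 190.9 CPM in treated and control TIB153 cells (−0.49, edgeR adjusted p = 0.0211, DESeq2 adjusted p = 0.138). PTCRA, which pairs with a new β chain before TRA is joined, stood at 14.3 CPM in treated and 29.5 CPM in control CUTLL1 cells and at 4.88 and 3.77 CPM in treated and control TIB153 cells, and did not pass the test.

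Of the 3 recombination enzymes, 2 fell across the lines by the edgeR test, where 6.78% of all genes did. DESeq2 called RAG1 and DNTT lower, where it called 1.88% of all genes lower. RAG1 stood at 66.0 CPM in treated and 253.1 CPM in control CUTLL1 cells and at 8.10 and 26.9 CPM in treated and control TIB153 cells (log2 change −1.86, SE 0.15, edgeR adjusted p = 3.55e-05, DESeq2 adjusted p = 2.31e-12). RAG2 stood at 31.5 CPM in treated and 53.0 CPM in control CUTLL1 cells and at 7.14 and 11.2 CPM in treated and control TIB153 cells (−0.71, SE 0.20, edgeR adjusted p = 0.0344, DESeq2 adjusted p = 0.262). DNTT stood at 2.99 CPM in treated and 21.0 CPM in control CUTLL1 cells and at 38.9 and 58.4 CPM in treated and control TIB153 cells, and did not pass the edgeR test (adjusted p = 0.294) but passed that of DESeq2 (adjusted p = 0.0202).

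Of 17 factors known to bind receptor enhancers or promoters, or to restrain those that do, 3 rose and 1 fell by the edgeR test, where 6.11% and 6.78% of all genes did. TCF7, a Tcf factor that binds the TRA enhancer, stood at 298.0 CPM in treated and 765.7 CPM in control CUTLL1 cells and at 370.1 and 553.5 CPM in treated and control TIB153 cells (log2 change −0.97, edgeR adjusted p = 0.0109, DESeq2 adjusted p = 0.000141). MYB rose (0.84, edgeR adjusted p = 0.0221, DESeq2 adjusted p = 0.00181), as did STAT5A (1.28, edgeR adjusted p = 0.00148, DESeq2 adjusted p = 0.00238). ATF1 rose by the edgeR test alone (0.64, adjusted p = 0.0225, DESeq2 adjusted p = 0.173). LEF1, the relative of TCF7, named after its values were seen, had log2 ratios of 0.10 in CUTLL1 and 0.11 in TIB153. The medians of this list were 0.07 in CUTLL1 and −0.03 in TIB153.

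Of 7 coreceptors and surface antigens, 2 fell and 0 rose by the edgeR test, where 6.78% and 6.11% of all genes did, with a median log2 ratio of −1.71 in CUTLL1 and −0.55 in TIB153. The 2 were CD8B, a coreceptor chain, and CD7, named after its values were seen. DESeq2 did not call CD8B (log2 change −1.33, edgeR adjusted p = 0.0214, DESeq2 adjusted p = 0.139). Its log2 ratio was −1.85 in CUTLL1 (−2.29 to −1.45) and −0.62 in TIB153 (−1.29 to 0.02), where the interval took in no change. For CD7 the log2 change was −0.69 (edgeR adjusted p = 0.00582, DESeq2 adjusted p = 0.0243). CD4 stood at 44.6 CPM in treated and 146.0 CPM in control CUTLL1 cells and at 3.57 and 2.60 CPM in treated and control TIB153 cells. CD28, a costimulatory receptor, stood at 16.6 CPM in treated and 85.7 CPM in control CUTLL1 cells and at 143.4 and 234.7 CPM in treated and control TIB153 cells. CD2, an adhesion receptor, had 33 counts in treated and 104 in control CUTLL1 cells and 688 and 815 in treated and control TIB153 cells. None of CD4, CD28 and CD2 passed either test across lines. Whether any of these levels bears on the receptor segments was not tested.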

How the data were processed

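RNA-seq libraries were made from CUTLL1 and TIB153 cells, treated with PKF118-310 or as controls. The authors deposited, for each library and lane, raw read counts per gene, and per the labels they used HISAT2, HTSeq, DESeq2 and hg38, with no versions; read length and the strand setting of the counting are not given in the sources used here. Their tables of fold changes and p-values were not used. The 8 lane tables were summed to 4 libraries, since lanes differed by no more than sampling noise (chi-square per degree of freedom 0.99 to 1.017, p 0.0845 to 0.786). Reads that match 2 near-identical segments may be lost or split by such counting, and intervals cover counting error only.

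Levels are CPM on TMM-scaled library sizes (edgeR 4.0.16, R 4.3.3) with Poisson intervals (scipy). Ratios within a line used a pseudocount of 0.5 counts and an exact binomial interval. Across lines, edgeR's robust quasi-likelihood test was fitted with the line as a block after filterByExpr, and DESeq2 1.42.0 was an alternative. Each SE is the absolute log2 change divided by the square root of the F statistic of that test, so it adds nothing to the p-value. With 1 residual degree of freedom, the spread was shared over genes (median prior degrees of freedom 13). The scripts were tested on simulated data. Coordinates and sequences come from GENCODE release 29 (GRCh38), where all 226 segments had the coordinates of the count tables. Every C segment is named, as is every V, D or J segment that reached 5 CPM in a library, and up to 4 members per gene list with the largest mean change; exceptions are said to be named after their values were seen. The segments and gene lists were chosen with earlier results of these data known. Other scalings, filters, pseudocounts, limits, single lanes and single lines were tried. A list of proximal signaling genes is not reported here.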

Additional observations from a re-analysis of the deposited data

Results flagged for a closer look

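The constant segments TRAC and TRBC2 had ratios of opposite sign in the 2 lines. With TMM scaling, each counting interval of these ratios left out no change. TRAC had a log2 ratio of treated to control cells of −0.98 in CUTLL1 (95% counting interval −1.10 to −0.86) and of 0.65 in TIB153 (0.21 to 1.11). TRBC2 had a log2 ratio of −0.15 in CUTLL1 (−0.27 to −0.04) and of 0.20 in TIB153 (0.03 to 0.37). With 1 library per group, the difference between the lines was not tested, and for TRBC2 both ratios are small. The Poisson intervals of the TRBC2 levels in treated and control cells overlapped in both lines. Its ratios are not given here for other scalings.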

How the results depend on the processing

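The p-values rest on 2 lines with 1 library per group, and those of TRAV9-2, TRBV6-6, TRGC1 and TRGV2 rest on CUTLL1 alone. The line was the block of the edgeR test, which pairs treated and control cells within a line; replicate numbers pair nothing beyond it, with 1 library per group. Without that block 0 segments, and 0 genes of any kind, passed across lines, against 5 segments and 900 of 13280 genes lower with it. DESeq2's Wald test called 1 segment (TRBC1) and 249 genes lower. With no filter, 6 of 99 segments and 1320 of 26583 genes were lower. The same 5 segments were called with DESeq2 size factors, with total counts and without robust estimation. In that order, 813, 552 and 927 of 13280 genes were lower. Without the CUTLL1 pair, TRBC1 had a log2 ratio of −0.40 in TIB153, and the other 4 had at most 3 counts in either TIB153 library, too few for a ratio.

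In CUTLL1, the 7 segments lower became 11 with no filter, where 0.671% of all 57189 genes were lower. The 7 became 6 with total counts, with a pseudocount of 2 counts or on lane 2 alone, and 1 was higher with total counts. In TIB153, 0 were lower with total counts, with a pseudocount of 2 counts or on lane 1 alone. Higher there were 2 with total counts, with no filter or at a 1.5-fold limit, and 0 on either lane alone. The share of all genes is not given for the other changed settings within a line. The summed β constant log2 ratio in CUTLL1 was −0.68 with total counts. At a minimum of 3 counts, 43 and 43 segments were detected in treated and control CUTLL1 cells and 32 and 29 in treated and control TIB153 cells; at 20 counts, 15 were in treated CUTLL1 cells. The share of TRBV6-6 in control CUTLL1 cells was 64.4% on lane 1 and 69.5% on lane 2, and the cause was not tested. The other 90 values of these kinds stayed within 1.5 times or within the counting interval. A count of 0 cannot tell a silent segment from one with counted reads below 0.357 to 0.405 CPM. For D and J segments it does not limit their use in joined transcripts.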

Other observations

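The 4 segments given here stayed below 5 CPM and are named after their values were seen. TRAV18 had 29 counts in treated and 29 in control CUTLL1 cells and 37 and 22 in treated and control TIB153 cells, and in TIB153 it took 30.3% of TRA V counts in treated and 29.7% in control cells. TRAV19 had 25 counts in treated and 13 in control CUTLL1 cells and 22 and 8 in treated and control TIB153 cells, with log2 ratios of 0.80 in CUTLL1 (−0.19 to 1.92) and 1.28 in TIB153 (0.11 to 2.71), and did not pass the edgeR test across lines (adjusted p = 0.167). TRGV8 had 12 counts in treated and 3 in control CUTLL1 cells (log2 ratio 1.72, −0.00 to 4.35) and 13 and 25 in treated and control TIB153 cells. TRGV4 had 7 counts in treated and 5 in control CUTLL1 cells and 11 and 1 in treated and control TIB153 cells (log2 ratio in TIB153 2.81, 0.55 to 8.76).

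Of the 7 V segments that reached 5 CPM in a library, TRAV8-4 and TRBV12-3 were the 2 not called lower in treated CUTLL1 cells. As background, these 2 are the V segments of the receptor of Jurkat, a widely used T-ALL line. No library is labelled Jurkat, although the name TIB153 matches the repository number of a Jurkat derivative known to lack a receptor β chain, which the labels do not state. The identity of the line labelled CUTLL1 could not be checked here, and whether this bears on the values was not tested. In control cells, TRAV8-4 was 7.38-fold higher in CUTLL1 than in TIB153 (5.32 to 10.7), while TRAC was 25.5-fold higher (20.2 to 33.3). The share of windows of TRAV8-4 found in another gene was 35.2%.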
